A study of Mus musculus with 24 samples.

Results

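Cytochrome P450 enzymes are heme proteins that insert oxygen into small molecules. In the small intestine they oxidise swallowed drugs and plant compounds in absorptive enterocytes, before these reach the liver, and other members act on fatty acids, sterols, bile acids, retinoids and vitamin D. Most families sit in the endoplasmic reticulum and take electrons from the reductase Por. Many drug-metabolising members are switched on by the xenobiotic receptors PXR (Nr1i2), CAR (Nr1i3) and AhR, and they are grouped by protein sequence into numbered families and lettered subfamilies.

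The genes described are those with an array symbol that starts with Cyp, a family number and a subfamily letter, leaving out Cyp51, the sterol demethylase of cholesterol synthesis. They number 75 genes with 99 probes, of 18138 symbols and 25697 probes in the table. Organoids, which are 3-dimensional cultures of intestinal crypt epithelium, came from the small intestine of C57BL/6 mice and grew in medium with EGF, Noggin and R-spondin. The irradiated organoids received 6 Gy of gamma rays 3 days after reseeding and were taken 24, 48 or 96 h later, and each time had its own non-irradiated controls. Each of the 6 groups holds 4 arrays, 24 in all. The labels do not say whether the 4 came from separate cultures or mice, so the p-values speak only to the scatter among these arrays, part or all of which could be technical. All 8 arrays of a time lay on 1 BeadChip, with controls at positions A to D and irradiated samples at E to H, so chip and time, and position and irradiation, cannot be told apart.

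Of the 75 genes, 38 had a probe detected on at least 4 of the 24 arrays and were tested among 10798 genes, and 20 of these were detected on every array. The other 37 were not tested, and 31 of them had no probe detected on any array. Among the undetected genes were Cyp7a1 and Cyp8b1, the bile acid synthesis enzymes of liver, the fatty acid hydroxylases Cyp4a12a, Cyp4a12b, Cyp4a14 and Cyp4a31, the steroid-synthesis genes Cyp11b1, Cyp17a1 and Cyp19a1, and Cyp26a1, Cyp27b1, Cyp2f2, Cyp3a16 and Cyp3a44. Cyp11b2, Cyp1a2, Cyp21a1, Cyp2g1, Cyp2r1 and Cyp4f15 were each detected on 1 to 3 arrays. The remaining undetected genes were Cyp2a12, Cyp2b9, Cyp2b13, Cyp2b19, Cyp2c37, Cyp2c39, Cyp2c50, Cyp2d9, Cyp2d12, Cyp2d13, Cyp2j5, Cyp2j13, Cyp4f18, Cyp4f39, Cyp4x1, Cyp7b1 and Cyp46a1. Members of 1 subfamily can be close copies, and the probe sequences were not used here, so signal shared between copies was not tested.

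The arrays carried the RNA of intestinal epithelium: 18 of 22 epithelial markers were tested, each detected on all 24 arrays, with Cdh1, Krt8, Tff3 and Lyz1 among the brightest. Of 12 liver markers 7 were not tested, with Alb, Ahsg, Fga, Tat and Tdo2 on no array, and the 5 tested averaged 4.82 to 5.91 log2 units, near the floor. Of 8 mesenchyme markers only Acta2 was tested, at 9.21 to 11.20 log2 units, while Col1a1, Col1a2, Col3a1, Dcn, Lum, Pdgfra and Pdgfrb were detected on no array. Acta2, an actin of muscle and myofibroblasts, was higher by 0.87 ± 0.26 at 48 h (limma adjusted p = 0.0259), and its part in the 48 h results was not tested. Immune and endothelial markers averaged 4.60 to 6.26 log2 units where tested. Near the floor, the endothelial marker Tek and the liver marker Serpinc1 were called higher at 24 h, at 0.94 ± 0.30 and 0.68 ± 0.18 (limma adjusted p = 0.0237 and 0.00776), and the liver marker Hpd lower at 48 and 96 h, at -0.65 ± 0.15 and -0.86 ± 0.15 (adjusted p = 0.00508 and 0.000855); their part in the results was not tested. The number of detected probes was 9738 to 12941 on irradiated and 12535 to 13551 on control arrays at 24 h, and 10971 to 14751 over the later times, and the part of that number in the results was not tested apart from leaving out the lowest arrays and fitting it as a covariate.

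The tested P450 genes stood mostly higher after irradiation at 24 and 48 h, and were mixed at 96 h. All levels and effects here are in log2 units of normalised signal, an effect being irradiated minus control, and a gene was called at an adjusted p under 0.05 in the limma fit to all tested genes. At 24 h 19 of the 38 were called higher and 5 lower, where 11.1% of all tested genes were called higher and 12.5% lower. At 48 h 17 were higher and 1 lower, against 7.27% and 6.22% of all genes. At 96 h 3 were higher and 3 lower, against 1.71% and 3.39%. The median effect of the 38 was 0.55 at 24 h, 0.42 at 48 h and 0.10 at 96 h, with medians over all tested genes of -0.044, -0.041 and -0.0036. The irradiated and control values of a time did not overlap for 24, 18 and 8 of the 38 at the 3 times, against 28.8%, 20.5% and 7.55% of all tested genes. In such bulk cultures, fewer cells of a type and less RNA per cell cannot be told apart.

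Cyp3a11, Cyp3a13 and Cyp2c29 were called higher at all 3 times and Cyp2s1 lower at all 3, and 1.73% of all tested genes were called at all 3 times in 1 direction. Of the 38, 14 were called higher at both 24 and 48 h, against 5.31% of all genes, and 11 at no time, against 70.3%. For the 20 P450 genes detected on every array, no share over all genes so detected was taken, so their counts lack a background. Among these 20, 14 were higher and 1 lower at 24 h, 12 and 1 at 48 h, and 3 and 3 at 96 h. These counts moved with array scaling: quantile normalization gives every array the same distribution, and when arrays were set to an equal median instead, 6 P450 genes were called higher and 5 lower at 24 h, 9 and 2 at 48 h, and 1 and 8 at 96 h. Under that scaling the median over all genes shifted to -0.44 at 24 h, -0.21 at 48 h and -0.21 at 96 h, and 8.62% of all calls at 24 h were higher, against 47.1% under quantile normalization. Of the genes called higher as reported, Cyp2c29, Cyp2e1, Cyp2j6, Cyp3a11 and Cyp3a25 kept that call at 24 h under median scaling, Cyp1a1, Cyp1b1, Cyp27a1, Cyp2c29, Cyp2d10, Cyp3a11, Cyp3a13, Cyp3a25 and Cyp4b1 at 48 h, and Cyp2c29 at 96 h. Relative to the median of all genes, the P450 median was 0.68, 0.43 and 0.11 with median scaling, and 0.60, 0.46 and 0.11 with quantile normalization. Without the 5 arrays with the fewest detected probes (irradiated 24 h replicates 3 and 4, irradiated 96 h replicates 3 and 4 and control 96 h replicate 4), the counts were 18 higher and 2 lower at 24 h, 19 and 2 at 48 h, and 4 and 3 at 96 h.

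**Figure D1:**
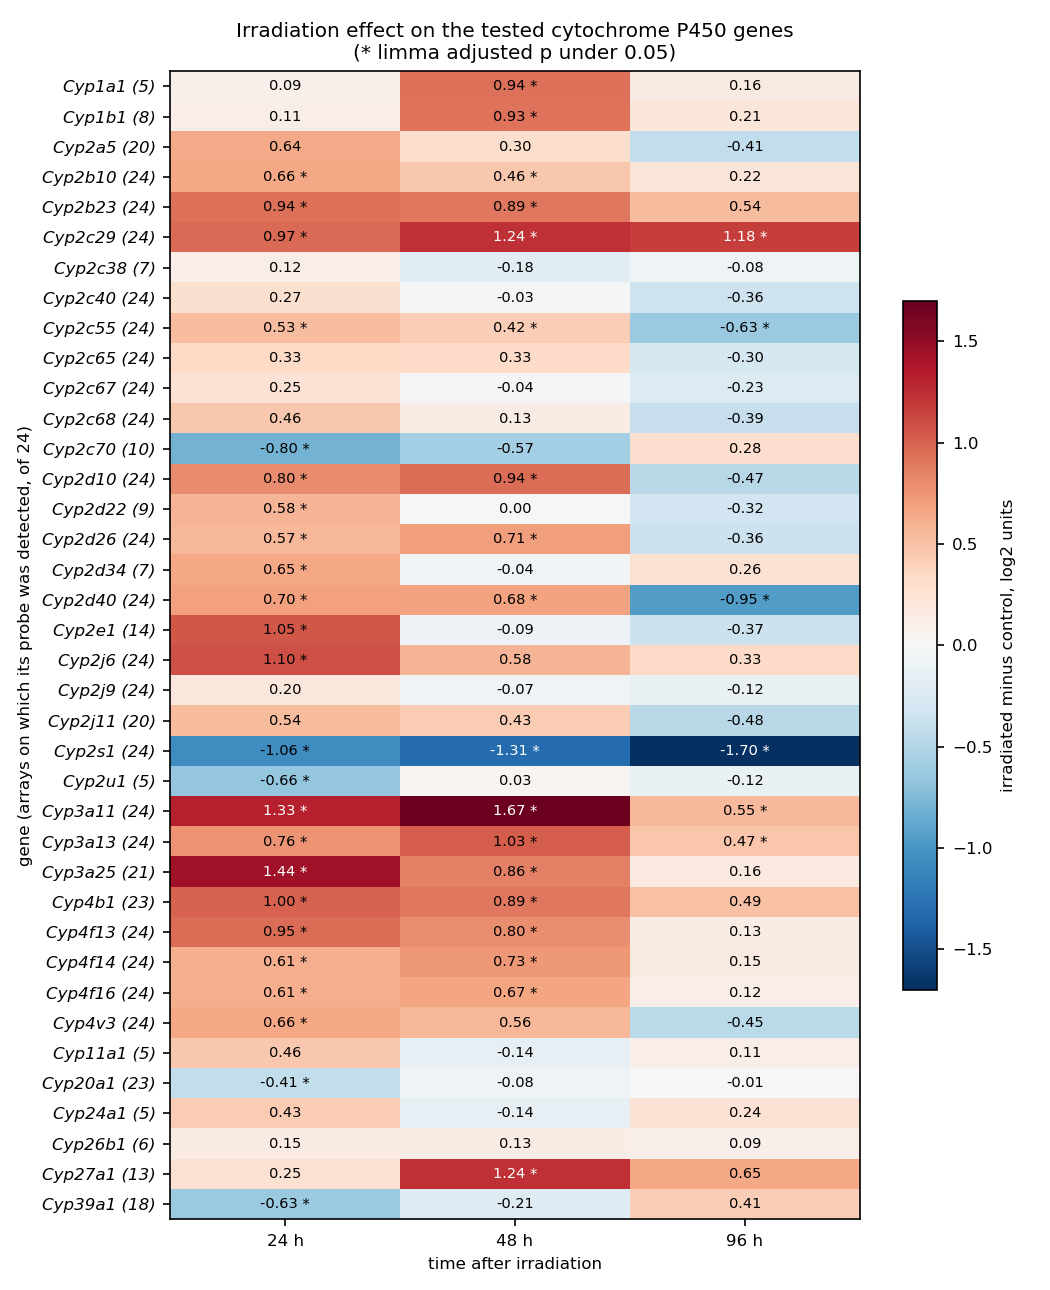
Irradiation effect (irradiated minus control, log2 units) of the 38 tested P450 genes, 1 row per gene in order of family and 1 column per time after irradiation. The colour and the printed value give the effect, an asterisk marks a limma adjusted p under 0.05, and the number in brackets is the count of arrays, of 24, on which the probe was detected. Red fills most of the 24 and 48 h columns, and Cyp2s1 is blue at all 3 times.

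Absorptive enterocyte genes moved with the P450 genes. Of 28 enterocyte genes 21 were tested, and 21 were higher and 0 lower at 24 h, 16 and 0 at 48 h, and 5 and 1 at 96 h, with median effects of 0.78, 0.69 and 0.16. Over all tested genes 11.1% were higher and 12.5% lower at 24 h, 7.27% and 6.22% at 48 h, and 1.71% and 3.39% at 96 h. With median scaling 7, 9 and 1 were higher and 0, 0 and 4 lower, with medians of 0.34, 0.41 and -0.14. The mean level of these 21 per array was 10.43 to 10.54 in irradiated organoids and 9.56 to 9.69 in controls at 24 h, 9.91 to 10.02 in irradiated organoids and 9.21 to 9.29 in controls at 48 h, and 9.11 to 9.20 in irradiated organoids and 8.99 to 9.08 in controls at 96 h. The crypt stem cell markers Lgr5 and Olfm4 were lower, Lgr5 at -1.48 ± 0.13, -0.87 ± 0.13 and -0.50 ± 0.13 at the 3 times (limma adjusted p = 1.76e-08, 5.32e-05 and 0.023), and Olfm4 at -1.27 ± 0.10 and -0.65 ± 0.10 at 24 and 48 h (adjusted p = 4.52e-09 and 8.71e-05). Markers of secretory cells also rose at 24 h, Chga by 0.96 ± 0.32, Lyz1 by 0.36 ± 0.09 and Tff3 by 0.33 ± 0.11 (limma adjusted p = 0.0313, 0.00594 and 0.0299). At 48 h Chga was higher by 1.35 ± 0.32 (adjusted p = 0.00566), and at 96 h Lyz1 was lower, at -0.32 ± 0.09 (adjusted p = 0.0459). The epithelial marker Cdx1 was lower at 24 h, at -0.59 ± 0.13 (adjusted p = 0.00237). The part of enterocyte, secretory or stem cell content in the P450 results was not tested.

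The Cyp3a subfamily oxidises a wide range of drugs, steroids and bile acids. Of its 5 listed genes 3 were tested, and all 3 were higher at 24 and 48 h, with a median effect of 1.33 and 1.03, and 2 at 96 h. Cyp3a11, the main PXR-driven member in mouse, read 10.21, 10.39, 10.18 and 10.14 in irradiated organoids, against 9.0, 8.92, 8.90 and 8.79 in controls at 24 h. Its readings were 9.31, 8.89, 9.36 and 9.24 in irradiated organoids, against 7.54, 7.69, 7.42 and 7.46 in controls at 48 h. At 96 h they were 7.84, 7.52, 7.66 and 8.02 in irradiated organoids, against 6.91, 7.45, 7.23 and 7.22 in controls. Every irradiated value lay above every control value at each time. The effect was 1.33 ± 0.13 (2.51-fold; limma adjusted p = 6.04e-08) at 24 h. It was 1.67 ± 0.13 (3.18-fold; limma adjusted p = 5.74e-09) at 48 h and 0.55 ± 0.13 (1.47-fold; limma adjusted p = 0.00923) at 96 h. The last call was lost without the 5 arrays with the fewest detected probes (0.48, limma adjusted p = 0.201) and with median scaling (0.32, adjusted p = 0.306). It was also lost with array weights (adjusted p = 0.0665), with the replicate number as a block (0.057) and with only the arrays of that time (0.175).

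Cyp3a13, the brightest Cyp3a gene here and a member known from the intestine, stood at 11.23, 11.41, 11.22 and 11.38 in irradiated organoids, against 10.46, 10.70, 10.50 and 10.54 in controls at 24 h. At 48 h its levels were 11.52, 11.46, 11.43 and 11.41 in irradiated organoids, against 10.34, 10.38, 10.40 and 10.56 in controls. At 96 h they were 10.64, 10.71, 10.73 and 10.73 in irradiated organoids, against 9.87, 9.93, 10.62 and 10.53 in controls. The groups did not overlap at any time, and control replicates 3 and 4 lay close under the irradiated values at 96 h. Effects were 0.76 ± 0.13 (1.69-fold; limma adjusted p = 0.000165) at 24 h and 1.03 ± 0.13 (2.05-fold; limma adjusted p = 5.32e-06) at 48 h. The 96 h effect was 0.47 ± 0.13 (1.38-fold; limma adjusted p = 0.0377), and its adjusted p was 0.0589 to 0.129 when any 1 of control replicates 1 and 2 or irradiated replicates 1 to 4 was left out, 0.141 without the 5 arrays with the fewest detected probes and 0.675 with median scaling. It was 0.0511 with cyclic loess, 0.057 with the replicate number as a block, 0.0683 with detected-probe number in the model and 0.376 with only the arrays of that time. Its other detected probes had 96 h effects of 0.81 and 1.10 when each probe was tested on its own, with limma adjusted p = 4.65e-05 and 0.0113.

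Cyp3a25 had 8.66, 8.49, 8.67 and 8.73 in irradiated organoids, against 7.41, 7.02, 7.15 and 7.19 in controls at 24 h, with no overlap. At 48 h its values were 7.92, 7.85, 7.62 and 7.73 in irradiated organoids, against 6.91, 7.20, 7.17 and 6.42 in controls, again without overlap. At 96 h they were 6.07, 5.56, 5.53 and 5.70 in irradiated organoids, against 6.02, 5.82, 5.33 and 5.03 in controls, and the groups overlapped. Effects were 1.44 ± 0.19 (2.72-fold; limma adjusted p = 4.72e-06), 0.86 ± 0.19 (1.81-fold; limma adjusted p = 0.00282) and 0.16 ± 0.19 (adjusted p = 0.712) in the order of time. The 96 h effect was below the 24 h effect by a tested difference of -1.28 ± 0.26 (limma adjusted p = 0.00251). In the RefSeq gene order of assembly GRCm38.p6, Cyp3a11 and Cyp3a25 are direct neighbours on chromosome 5 and Cyp3a13 lies apart from the cluster.

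The promoters of Cyp3a11, Cyp2c29 and Cyp4b1 are shown for the genes with the largest called change in the Cyp3a, Cyp2c and Cyp4 groups, and that of Cyp2c65 for a bright Cyp2c gene called at no time. The sequences are from RefSeq on GRCm38.p6 and run from 250 bases before the annotated start to 50 after it, at chr5:145879805-145880104, minus strand; chr19:39286835-39287134, plus strand; chr19:39060756-39061055, plus strand; and chr4:115647672-115647971, minus strand. Capitals mark CAAAGTCCA, a core that the enterocyte and liver factor HNF4 binds, 109 bases before the start in Cyp3a11 and 116 in Cyp2c65. They also mark the letters TATAAA, which begin 19 bases before the start in Cyp2c29, 234 in Cyp3a11 and 162 in Cyp2c65; a TATA box lies close to the start, and these are matches of letters only.
Cyp3a11: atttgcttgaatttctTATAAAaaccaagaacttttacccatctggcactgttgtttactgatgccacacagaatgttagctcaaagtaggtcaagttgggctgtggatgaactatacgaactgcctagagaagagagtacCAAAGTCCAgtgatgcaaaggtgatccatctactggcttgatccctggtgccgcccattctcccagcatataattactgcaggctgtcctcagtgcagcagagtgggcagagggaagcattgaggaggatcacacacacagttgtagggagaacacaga
Cyp2c29: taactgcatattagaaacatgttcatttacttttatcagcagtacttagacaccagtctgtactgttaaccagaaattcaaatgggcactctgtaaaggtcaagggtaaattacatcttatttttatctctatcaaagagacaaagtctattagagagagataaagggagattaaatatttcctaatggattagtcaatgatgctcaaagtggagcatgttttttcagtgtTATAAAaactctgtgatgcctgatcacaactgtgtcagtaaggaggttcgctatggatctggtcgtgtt
Cyp2c65: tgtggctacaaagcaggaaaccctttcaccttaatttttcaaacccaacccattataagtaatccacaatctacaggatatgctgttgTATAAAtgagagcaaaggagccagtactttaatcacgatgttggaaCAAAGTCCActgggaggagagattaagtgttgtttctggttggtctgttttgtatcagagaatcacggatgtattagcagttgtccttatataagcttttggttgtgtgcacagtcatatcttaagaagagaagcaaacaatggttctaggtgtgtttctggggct
Cyp4b1: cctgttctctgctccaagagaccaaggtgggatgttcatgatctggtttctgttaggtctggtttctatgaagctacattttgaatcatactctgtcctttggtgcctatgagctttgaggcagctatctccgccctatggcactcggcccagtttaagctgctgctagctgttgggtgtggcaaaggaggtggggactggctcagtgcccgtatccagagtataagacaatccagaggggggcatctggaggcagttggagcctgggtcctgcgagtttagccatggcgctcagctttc

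Promoters were found for 33 of the 38 tested genes, and none of the windows for Cyp2d22, Cyp2d34, Cyp24a1, Cyp39a1 and Cyp2u1 was in the table. The core CAAAGTCCA, searched on both strands, stood in the windows of 6 of the 33 genes and in 0.475% of all 32851 promoters of that length. For every motif the member count is of genes, while the share is of promoter entries. TATAAA stood in 15 of the 33 and in 13.6% of all promoters. The 6 genes with the core are shown to compare their flanks, on the gene's strand and with the core in capitals. In GRCm38.p6 these windows lie at chr5:145879945-145879973 (Cyp3a11, minus strand); chr19:39060880-39060908 (Cyp2c65, plus strand); chr19:39649149-39649177 (Cyp2c67, minus strand); chr19:39741160-39741188 (Cyp2c68, minus strand); chr19:39812841-39812869 (Cyp2c40, minus strand); chr19:40187332-40187360 (Cyp2c70, minus strand).
Cyp3a11: aagagagtacCAAAGTCCAgtgatgcaaa
Cyp2c65: gatgttggaaCAAAGTCCActgggaggag
Cyp2c67: atcattgagaCAAAGTCCAtttggaagca
Cyp2c68: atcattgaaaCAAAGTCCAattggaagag
Cyp2c40: atcattgagaCAAAGTCCAtttggaagag
Cyp2c70: aggtcaaactCAAAGTCCAaactctgtgt

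In all, 5 of these 6 genes are Cyp2c members, and the core began 45 to 125 bases before the start. Cyp2c67, Cyp2c68 and Cyp2c40 follow each other in the cluster and have nearly the same flanks, so their matches may not be separate occurrences. Of the 6, Cyp3a11 was called higher and Cyp2c70 lower at 24 h, and Cyp2c40, Cyp2c65, Cyp2c67 and Cyp2c68 were called at no single time. The core was not found in the windows of Cyp2c29, Cyp2c55 or Cyp4b1. The other motifs searched on both strands were CAAAGTNCA, which covers the core; the nuclear receptor half-site AGGTCA, alone or repeated after 1 free base; a second such half-site, AGTTCA, alone, repeated after 3 free bases, or preceded at a distance of 6 free bases by its own reverse complement; the AhR core GCGTG; the motif GTTAAT, alone or with the first 4 letters of its reverse complement after 1 free base; the core of the intestinal CDX factors, TTTAT, which was also searched with the letters TA added at its end; the C/EBP motif TTGCGCAA; the GATA factor motif AGATAA; the CREB motif TGACGTCA; and the core of the p53 element, CATG. With the core and TATAAA these made 17, and each repeat or longer form overlaps the shorter motif in it. Of these, CAAAGTNCA stood in 7 genes and 1.41% of all promoters, the added gene being Cyp2d26, and AGGTCA in 8 genes and 16.3%. AGTTCA was in 6 genes and 14% of all promoters, GTTAAT in 5 and 7.1%, TTTAT in 23 and 40%, AGATAA in 5 and 11.2%, and CATG in 20 and 61.1%. The longer CDX form was in 1 gene and 4.93% of all promoters, and the 6 that no member window held were in at most 1.79%. A match is only a run of letters, not a measured site.

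The Cyp2c genes, which oxidise drugs and turn arachidonic acid into epoxides and hydroxy acids, did not share 1 direction. Of 11 listed 8 were tested, with 2 higher and 1 lower at 24 h, 2 and 0 at 48 h, and 1 and 1 at 96 h, and with median effects of 0.30, 0.05 and -0.27. Median scaling turned the 24 and 48 h medians to -0.09 and -0.13. Differences between subfamilies were not tested.

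Cyp2c29, an epoxygenase that CAR induces in liver, showed levels of 11.54, 11.59, 11.59 and 11.58 in irradiated organoids, against 10.66, 10.47, 10.64 and 10.67 in controls at 24 h. At 48 h it had 11.07, 10.72, 11.09 and 10.83 in irradiated organoids, against 9.79, 9.50, 9.55 and 9.93 in controls. At 96 h it had 9.95, 9.99, 9.73 and 10.09 in irradiated organoids, against 8.64, 8.64, 9.01 and 8.77 in controls. No values overlapped, and both groups were lower at the later times. Effects were 0.97 ± 0.12 (1.96-fold; limma adjusted p = 1.56e-06), 1.24 ± 0.12 (2.36-fold; limma adjusted p = 9.07e-08) and 1.18 ± 0.12 (2.26-fold; limma adjusted p = 2.5e-07) in the order of time. The difference between its 96 and 24 h effects, 0.21 ± 0.16 (limma adjusted p = 0.461), was not called. A dimmer Cyp2c29 probe, tested on its own, had effects of 1.20, 1.11 and 1.17.

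Cyp2c55, which makes hydroxy fatty acids in the gut, was higher at 24 h and lower at 96 h. It read 10.05, 10.21, 10.04 and 10.04 in irradiated organoids, against 9.57, 9.62, 9.48 and 9.58 in controls at 24 h. At 96 h it read 8.75, 8.89, 8.92 and 9.20 in irradiated organoids, against 9.46, 9.59, 9.40 and 9.81 in controls. Neither time showed overlap, and the order of the groups was opposite. Effects were 0.53 ± 0.13 (1.44-fold; limma adjusted p = 0.00504) and -0.63 ± 0.13 (1.55-fold lower; limma adjusted p = 0.00389), and the difference between them was -1.15 ± 0.18 (limma adjusted p = 0.00024). At 48 h the values were 9.46, 9.20, 9.63 and 9.87 in irradiated organoids, against 8.98, 8.96, 9.22 and 9.32 in controls, which overlapped, and the call at 0.42 ± 0.13 (adjusted p = 0.0353) was lost without control replicate 1 or 2 or irradiated replicate 3 or 4 (0.0987 to 0.162). With median scaling the 24 h effect was 0.04 (adjusted p = 0.838), and the 96 h call was lost with only the arrays of that time in the fit (adjusted p = 0.0803).

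Cyp2c65, the brightest Cyp2c gene and the direct neighbour of Cyp2c55 on chromosome 19, read 11.45, 11.38, 11.26 and 11.21 in irradiated organoids, against 11.04, 10.86, 11.05 and 11.02 in controls at 24 h. The groups did not overlap there, yet 0.33 ± 0.13 was not called (limma adjusted p = 0.066). Its effects were 0.33 at 48 h and -0.30 at 96 h, not called, and the difference between 96 and 24 h was -0.63 ± 0.18 (limma adjusted p = 0.0265). That call was lost in 8 of 30 alternatives. Among them were median scaling (limma adjusted p = 0.172), the replicate number as a block (0.0703) and only the arrays of those times (0.0647). Leaving out the 5 arrays with the fewest detected probes (0.0566) also ended it, as did 4 omissions of 1 array (0.0525 to 0.0592). Cyp2c67, Cyp2c68 and Cyp2c40 follow each other in the cluster and had uncalled effects of 0.25, 0.46 and 0.27 at 24 h, and -0.23, -0.39 and -0.36 at 96 h. Cyp2c38, detected on 7 arrays, had effects of 0.12, -0.18 and -0.08, none called.

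Cyp2c70 makes the muricholic acids of mouse bile and lay near the detection limit. It read 5.45, 4.96, 4.70 and 4.77 in irradiated organoids, against 5.60, 5.80, 5.97 and 5.72 in controls at 24 h, with 1 irradiated and 4 control arrays detected. The groups did not overlap, and the gene was called lower (limma adjusted p = 0.00605). The lowest signal detected on the 4 irradiated arrays was 5.27, 5.40, 6.26 and 5.90, so no fold is given. At 48 h no irradiated array detected it, against 3 of 4 controls, and it was not called (limma adjusted p = 0.0676). Measured means were 4.68 in irradiated organoids and 5.25 in controls. The bound from these means was 1.07-fold lower, and without a call it does not show a fall. At 96 h 2 irradiated and 0 control arrays detected it, and the effect of 0.28 ± 0.20 was not called.

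**Figure D2:**
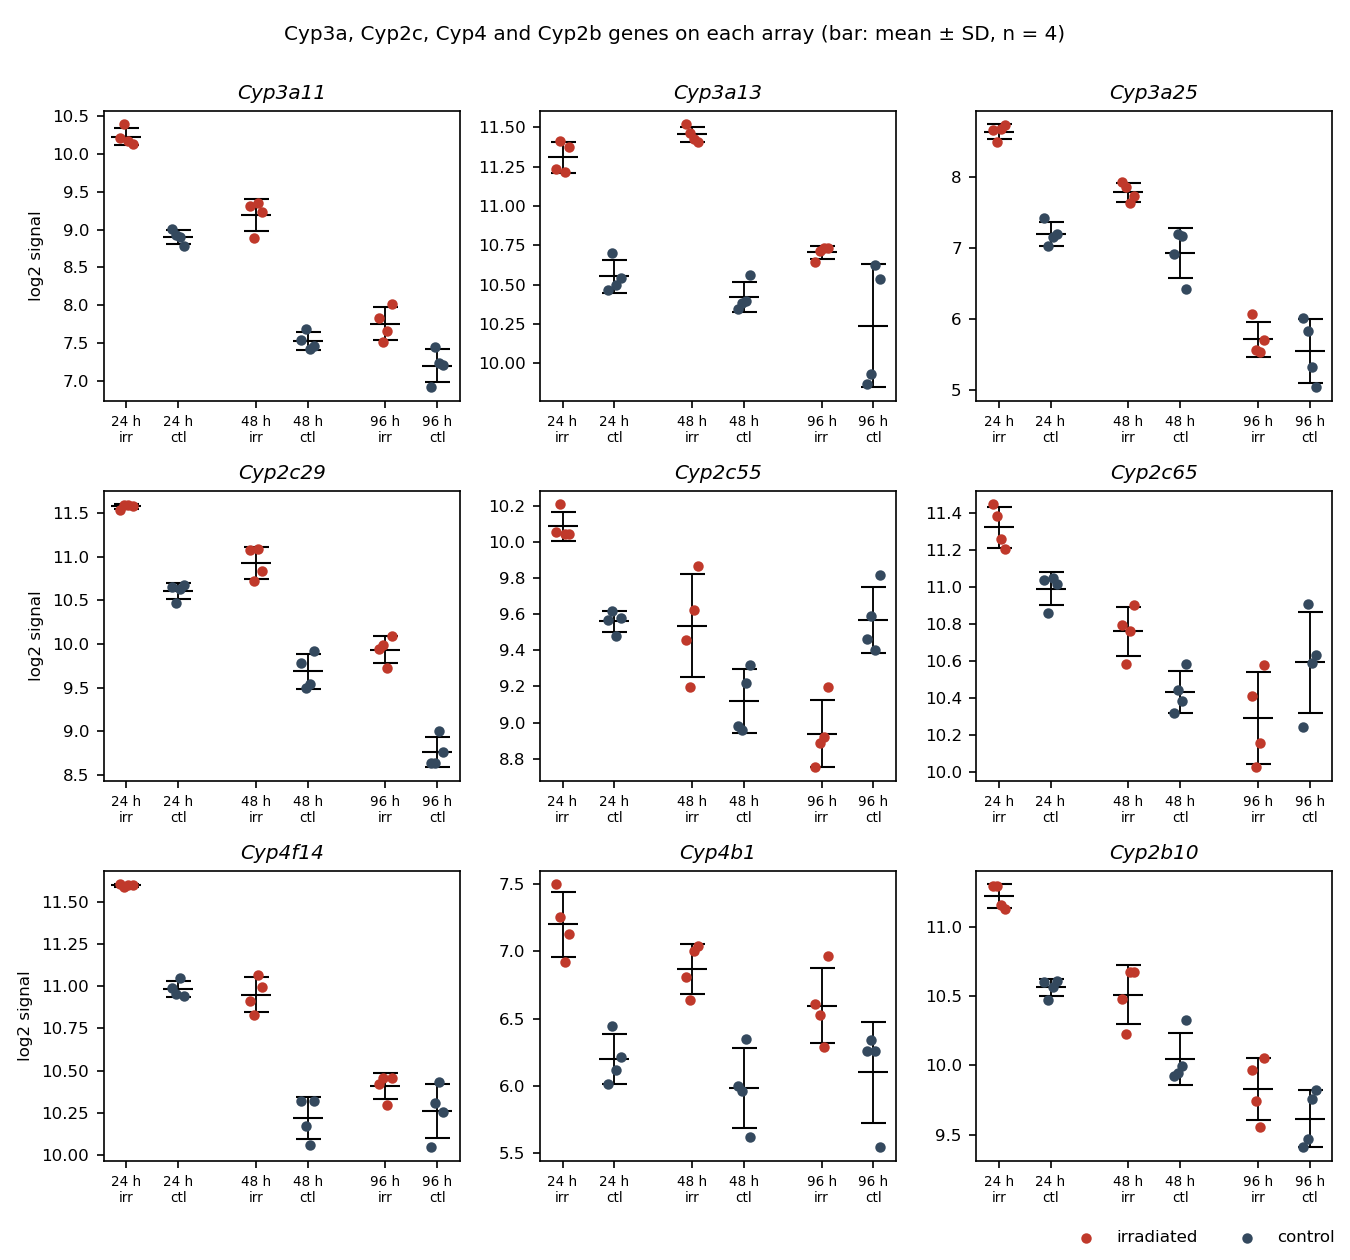
Log2 signal of 9 P450 genes on each array, in pairs of irradiated (irr, red, left) and control (ctl, dark, right) at 24, 48 and 96 h, with the mean and SD of 4 arrays in black. Axes differ between panels and do not start at 0. Cyp3a11 and Cyp2c29 separate at every time, and Cyp2c55 is above its control at 24 h and below it at 96 h.

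The Cyp2b genes are the classical targets of CAR. Of 5 listed Cyp2b10 and Cyp2b23 were tested, and both were higher at 24 and 48 h and uncalled at 96 h. With median scaling their median effects were 0.33, 0.46 and 0.11, and 0 were called at each time. Cyp2b10 read 11.30, 11.29, 11.16 and 11.13 in irradiated organoids, against 10.60, 10.47, 10.57 and 10.61 in controls at 24 h. These did not overlap, with an effect of 0.66 ± 0.13 (1.58-fold; limma adjusted p = 0.000641). Its 48 h effect was 0.46 ± 0.13 (adjusted p = 0.0174) with overlapping values, and the adjusted p was 0.0536 to 0.068 without control replicate 1 or 2 or irradiated replicate 3 or 4. With its probes averaged, the 48 h effect of Cyp2b10 was 0.37 and not called (limma adjusted p = 0.157). A dimmer Cyp2b10 probe, tested on its own, was called at no time. It had effects of 0.50, 0.27 and -0.26 in the order of time (limma adjusted p = 0.174, 0.58 and 0.681). Cyp2b23 had effects of 0.94 ± 0.29 and 0.89 ± 0.29 (adjusted p = 0.0196 and 0.0406). The 48 h call of Cyp2b23 was lost (0.052 to 0.131) without control replicate 1, 2 or 3 or irradiated replicate 1, 3 or 4. Its 24 h call was lost with detected-probe number in the model (0.86, limma adjusted p = 0.0762).

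The Cyp2d genes, a drug-oxidising group that is expanded in rodents, were higher early and no longer so at 96 h. Of 8 listed 5 were tested: 5 were higher at 24 h, 3 at 48 h, and 1 was lower at 96 h. Median effects were 0.65, 0.68 and -0.36, and with median scaling they were 0.24, 0.44 and -0.65 with 0, 1 and 0 called higher and 0, 0 and 3 called lower. Cyp2d26, the brightest, read 11.0, 10.76, 10.91 and 10.77 in irradiated organoids, against 10.26, 10.23, 10.35 and 10.33 in controls at 24 h. At 48 h it read 9.39, 9.61, 9.63 and 9.74 in irradiated organoids, against 9.03, 8.82, 8.90 and 8.78 in controls. At 96 h its values were 8.82, 8.79, 8.90 and 9.07 in irradiated organoids, against 9.33, 9.76, 8.95 and 9.01 in controls. The groups separated at 24 and 48 h and overlapped at 96 h. Effects were 0.57 ± 0.13 (1.48-fold; limma adjusted p = 0.00347), 0.71 ± 0.13 (1.64-fold; limma adjusted p = 0.000732) and -0.36 ± 0.13 (adjusted p = 0.138). Its 2 dimmer probes, tested on their own, had 96 h effects of -0.78 and -1.13 (limma adjusted p = 0.145 and 0.0247). Neither was called at the earlier times. Their effects were 0.73 and 0.72 at 24 h (limma adjusted p = 0.0685 and 0.0787). At 48 h they were 0.79 and 0.83 (limma adjusted p = 0.0796 and 0.0683). With the probes of a gene averaged, Cyp2d26 was called lower at 96 h at -0.76 (adjusted p = 0.0149).

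Cyp2d10 read 8.35, 8.37, 8.53 and 8.70 in irradiated organoids, against 7.51, 7.50, 7.22 and 7.96 in controls at 48 h, without overlap. Effects were 0.80 ± 0.14 (1.74-fold; limma adjusted p = 0.000198) at 24 h and 0.94 ± 0.14 (1.92-fold; limma adjusted p = 4.83e-05) at 48 h. At 96 h every irradiated value, 7.60 to 8.08, lay below every control value, 8.22 to 8.42, and -0.47 ± 0.14 missed the threshold (adjusted p = 0.0507). Cyp2d40 changed side. It read 8.46, 7.65, 7.96 and 7.79 in irradiated organoids, against 7.44, 6.89, 7.10 and 7.66 in controls at 24 h, with an effect of 0.70 ± 0.19 (1.62-fold; limma adjusted p = 0.0109) and overlap. At 96 h it read 5.34, 5.75, 5.97 and 6.02 in irradiated organoids, against 6.70, 6.89, 6.52 and 6.79 in controls, with no overlap and an effect of -0.95 ± 0.19 (1.93-fold lower; limma adjusted p = 0.00312). The difference between its 96 and 24 h effects was -1.65 ± 0.27 (limma adjusted p = 0.000331). At 48 h Cyp2d40 was higher by 0.68 ± 0.19 (adjusted p = 0.0196), which was lost without control replicate 2 or 3 or irradiated replicate 4 (0.0503 to 0.095). Its 24 h call was lost with median scaling (0.11, limma adjusted p = 0.704) and with detected-probe number in the model (0.62, adjusted p = 0.0554).

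Cyp2d22 and Cyp2d34 were dim, detected on 9 and 7 arrays. Their 24 h effects were 0.58 ± 0.14 and 0.65 ± 0.21 (adjusted p = 0.00339 and 0.0234), and irradiated replicate 3 of Cyp2d34 lay below the controls. The Cyp2d34 call was lost without control replicate 3 or 4 or irradiated replicate 1 or 2 (0.0526 to 0.0877), and with only the arrays of that time (0.113). For Cyp2d22 and Cyp2d34 the calls were lost with cyclic loess (limma adjusted p = 0.219 and 0.159) and with median scaling (0.247 and 0.0597).

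Cyp2e1, which oxidises ethanol and other small molecules, read 5.83, 5.92, 5.15 and 5.98 in irradiated organoids, against 4.71, 4.66, 4.62 and 4.66 in controls at 24 h. No control array detected it, against 3 irradiated arrays, so it was at least 1.37-fold higher in irradiated organoids (limma adjusted p = 0.000482). At 48 h both groups were detected on 4 of 4 arrays, and -0.09 ± 0.20 was not called. The Cyp2j genes make epoxides of arachidonic acid. Of 5 listed 3 were tested, and only Cyp2j6 was called, at 24 h. Cyp2j6 had 7.76, 7.06, 7.59 and 7.36 in irradiated organoids, against 6.52, 6.05, 6.31 and 6.49 in controls at 24 h. All irradiated values were higher, by 1.10 ± 0.20 (2.15-fold; limma adjusted p = 0.000275). Its 48 h effect of 0.58 ± 0.20 missed the threshold (adjusted p = 0.0554). Cyp2j9, the brightest of the subfamily, had 8.21, 8.06, 8.18 and 8.53 in irradiated organoids, against 7.96, 7.86, 8.16 and 8.21 in controls at 24 h, with overlap and an uncalled effect of 0.20 ± 0.18. Cyp2j11 and the nicotine and coumarin oxidase Cyp2a5 were not called, with 24 h effects of 0.54 ± 0.27 and 0.64 ± 0.33.

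The Cyp4 genes hydroxylate the ends of fatty acids and of lipid mediators such as leukotrienes. Of 13 listed 5 were tested: 5 were higher at 24 h, 4 at 48 h and 0 at 96 h, with median effects of 0.66, 0.73 and 0.13. With median scaling the medians were 0.28, 0.45 and -0.15, and 0, 1 and 0 were called higher and 0, 0 and 1 lower. Cyp4f14, the brightest, read 11.60, 11.59, 11.60 and 11.60 in irradiated organoids, against 10.99, 10.96, 11.05 and 10.94 in controls at 24 h. At 48 h it read 10.91, 10.83, 11.06 and 11.0 in irradiated organoids, against 10.32, 10.17, 10.06 and 10.32 in controls. At 96 h its values were 10.42, 10.46, 10.30 and 10.46 in irradiated organoids, against 10.05, 10.31, 10.43 and 10.25 in controls. The separation at 24 and 48 h gave way to overlap at 96 h. Effects were 0.61 ± 0.09 (1.53-fold; limma adjusted p = 2.74e-05), 0.73 ± 0.09 (1.66-fold; limma adjusted p = 4.09e-06) and 0.15 ± 0.09 (adjusted p = 0.42).

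Cyp4b1, which also activates some lung toxins, read 7.50, 7.26, 6.92 and 7.13 in irradiated organoids, against 6.01, 6.45, 6.12 and 6.22 in controls at 24 h. At 48 h it had 6.81, 6.64, 7.0 and 7.04 in irradiated organoids, against 6.0, 5.96, 6.35 and 5.62 in controls. Neither set overlapped, and effects were 1.0 ± 0.18 (2.0-fold; limma adjusted p = 0.000334) and 0.89 ± 0.18 (1.85-fold; limma adjusted p = 0.00177). Cyp4f13 was higher by 0.95 ± 0.17 and 0.80 ± 0.17 at these times (adjusted p = 0.000271 and 0.00243). Cyp4f16 was higher by 0.61 ± 0.20 and 0.67 ± 0.20 (adjusted p = 0.0276 and 0.0268). Its 24 h call was lost (0.0539 to 0.105) without control replicate 1 or 2 or irradiated replicate 1, 3 or 4, and its 48 h call (0.0519 to 0.093) without control replicate 1 or 4 or irradiated replicate 2, 3 or 4. The 24 h call of Cyp4f16 was also lost without the 5 arrays with the fewest detected probes (limma adjusted p = 0.199). Detected-probe number in the model ended it too (0.0762). The other detected Cyp4f16 probes, tested on their own, had 24 h effects of 0.56 and 0.26 (limma adjusted p = 0.0826 and 0.553). Their 48 h effects were 0.75 and 0.84 (adjusted p = 0.0353 and 0.0634). Cyp4v3, a fatty acid hydroxylase, was higher by 0.66 ± 0.19 at 24 h (adjusted p = 0.0155) and had uncalled effects of 0.56 and -0.45 later. In gene order Cyp4f16, Cyp4f14 and Cyp4f13 lie in 1 cluster on chromosome 17.

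**Figure D3:**
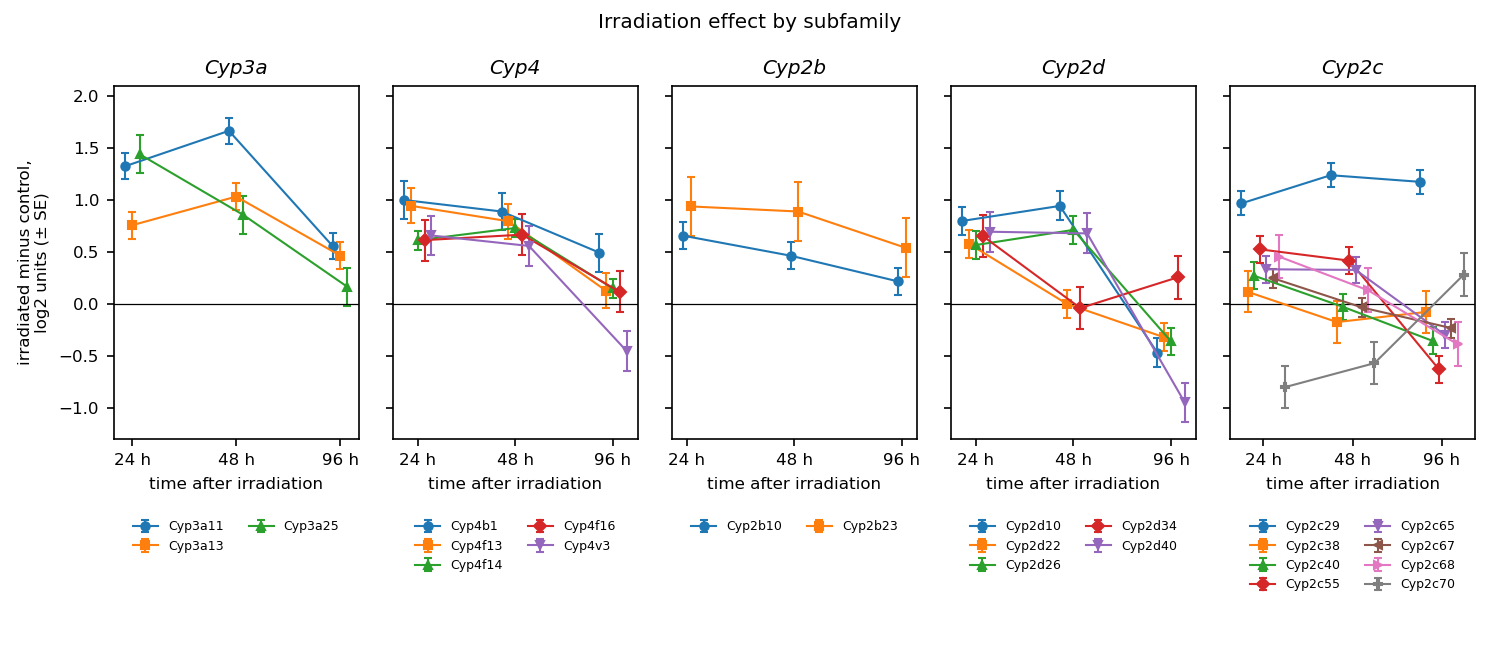
Irradiation effect (irradiated minus control, log2 units, bars show the SE of the limma fit) at 24, 48 and 96 h for each tested gene of 5 P450 groups, with a zero line. The Cyp3a, Cyp4 and Cyp2b genes lie above 0 at 24 and 48 h, the Cyp2d genes pass from above 0 at 24 h to mostly below it at 96 h, and Cyp2c29 stands apart from the other Cyp2c genes.

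Cyp2s1, a P450 of epithelia outside the liver, was lower at all 3 times. It read 9.10, 8.95, 9.0 and 9.02 in irradiated organoids, against 9.82, 10.24, 10.29 and 9.95 in controls at 24 h. At 48 h it read 6.93, 7.10, 7.20 and 7.31 in irradiated organoids, against 8.39, 8.29, 8.19 and 8.90 in controls. At 96 h its values were 8.40, 8.79, 8.51 and 8.64 in irradiated organoids, against 10.05, 9.95, 10.63 and 10.51 in controls. Every irradiated value was below every control value at each time, and both groups were lowest at 48 h. Effects were -1.06 ± 0.16 (2.08-fold lower; limma adjusted p = 4.04e-05), -1.31 ± 0.16 (2.48-fold lower; limma adjusted p = 3.87e-06) and -1.70 ± 0.16 (3.25-fold lower; limma adjusted p = 1.59e-07). The 96 h effect differed from the 24 h effect by -0.64 ± 0.23 (limma adjusted p = 0.0703), which was not called. None of the alternatives run ended any of the 3 calls.

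The Cyp1 genes, targets of AhR that oxidise polycyclic aromatic compounds, were detected only on the 48 h arrays. Cyp1a1 read 6.28, 6.19, 5.90 and 5.76 in irradiated organoids, against 4.96, 4.98, 5.39 and 5.03 in controls at 48 h, detected on 4 irradiated and 1 control arrays. Cyp1b1 read 6.36, 6.76, 6.56 and 6.37 in irradiated organoids, against 5.82, 5.61, 5.58 and 5.33 in controls, detected on all 8. Both separated, with effects of 0.94 ± 0.12 (1.92-fold; limma adjusted p = 5.46e-06) for Cyp1a1 and 0.93 ± 0.12 (1.90-fold; limma adjusted p = 6e-06) for Cyp1b1. Since only 1 control array detected Cyp1a1 at 48 h, the size of its effect there is not settled. At 24 and 96 h no array detected Cyp1a1 or Cyp1b1, at 4.46 to 5.09 log2 units, so no fold is given. The effect at 48 h was called higher than that at 24 h for Cyp1a1 (limma adjusted p = 0.00995) and Cyp1b1 (limma adjusted p = 0.013), with no size since the 24 h values were not above background. Among all tested genes 0.250% were called higher and 0.741% lower in that contrast, and these were the 2 P450 genes called. With median scaling, and with the replicate number as a block, 0 P450 genes were called in it. All 48 h arrays shared 1 chip. Ahr itself and its target Tiparp were not called, with 48 h effects of -0.14 ± 0.22 and -0.14 ± 0.22.

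The Cyp1a1 promoter is shown because Cyp1a1 is a target of AhR. Its window lies at chr9:57697363-57697662, plus strand (GRCm38.p6, RefSeq). Capitals mark the letters GCGTG, searched as the AhR core, 54 bases before the start, and TATAAA at 30 bases. The GCGTG match is of letters only, and whether AhR binds there was not tested. Bases farther from the start than this window were not searched.
Cyp1a1: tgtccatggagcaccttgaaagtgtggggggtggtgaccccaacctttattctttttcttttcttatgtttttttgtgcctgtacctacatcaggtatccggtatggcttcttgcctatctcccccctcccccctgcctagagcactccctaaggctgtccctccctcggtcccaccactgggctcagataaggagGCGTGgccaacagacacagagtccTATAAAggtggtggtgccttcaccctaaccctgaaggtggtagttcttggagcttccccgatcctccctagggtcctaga
GCGTG was also in the windows of Cyp1b1, Cyp20a1, Cyp2b10, Cyp2c68, Cyp2j9, Cyp4f14, Cyp4f16 and Cyp4v3, thus in 9 of 33 genes, and in 32.4% of all promoters.

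**Figure D4:**
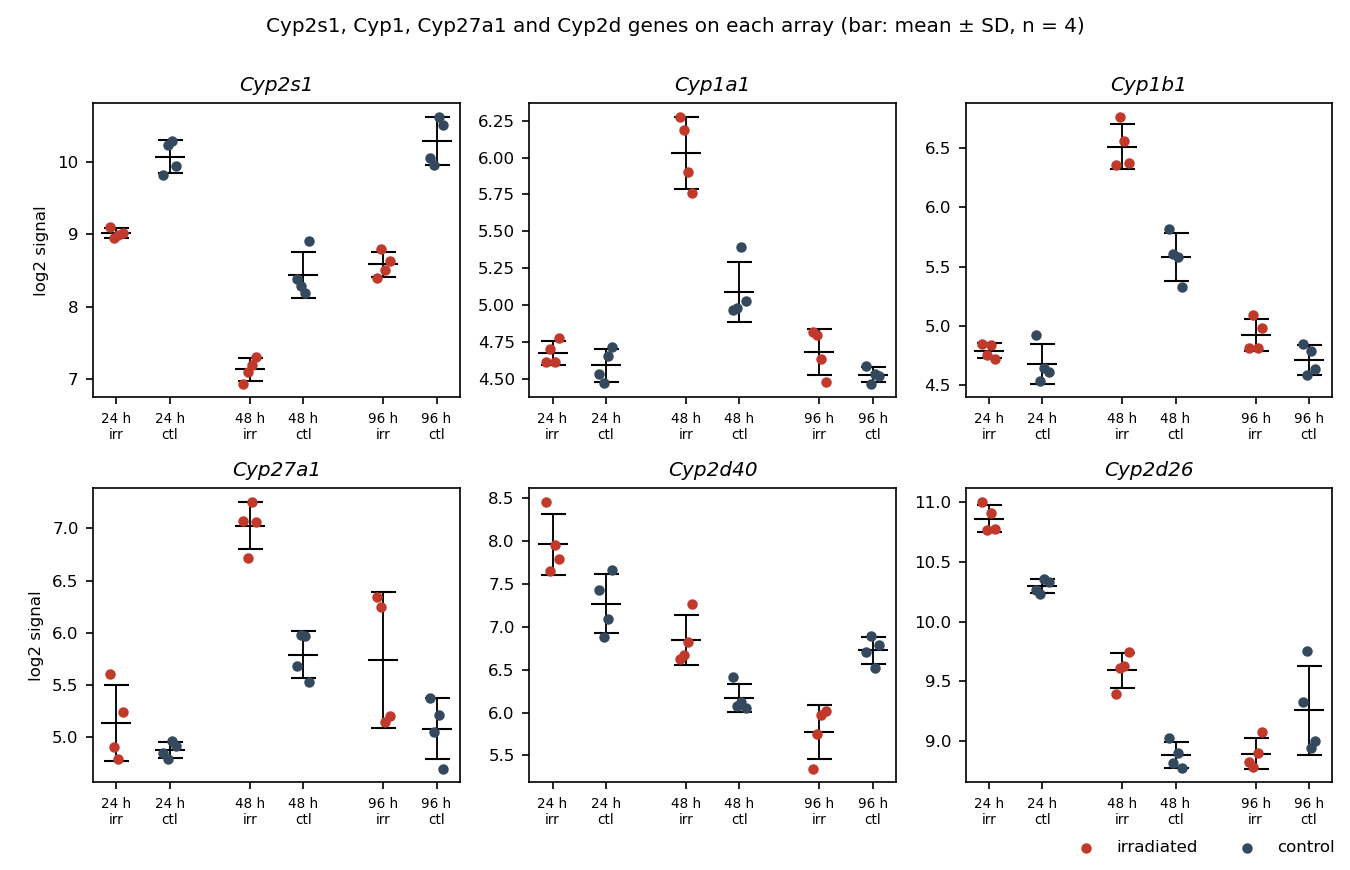
Log2 signal of 6 P450 genes on each array, in pairs of irradiated (irr, red, left) and control (ctl, dark, right) at 24, 48 and 96 h, with the mean and SD of 4 arrays in black. Axes differ between panels and do not start at 0. Cyp2s1 is below its control at each time, Cyp1a1 and Cyp1b1 stand out at 48 h, and Cyp2d40 is above its control at 24 h on average and below it at 96 h.

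Among sterol and vitamin enzymes, Cyp27a1, the mitochondrial side-chain hydroxylase of sterols, rose at 48 h. It read 7.07, 6.72, 7.26 and 7.06 in irradiated organoids, against 5.68, 5.98, 5.97 and 5.53 in controls at 48 h. The groups did not overlap, and the effect was 1.24 ± 0.24 (2.36-fold; limma adjusted p = 0.000815). Its other 2 probes had 48 h effects of 1.10 and 1.57, tested on their own (limma adjusted p = 0.000511 and 7.2e-06). At 96 h irradiated replicates 1 and 2 read 6.35 and 6.25 and replicates 3 and 4 read 5.15 and 5.20, with controls at 4.70 to 5.38, and 0.65 ± 0.24 was not called (adjusted p = 0.126). Replicates 3 and 4 are 2 of the 5 arrays with the fewest detected probes, and without those 5 the 96 h effect was 1.09 (adjusted p = 0.00367).

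Cyp39a1, a hydroxylase of oxysterols, read 4.98, 5.46, 5.56 and 4.96 in irradiated organoids, against 5.78, 5.85, 5.90 and 5.95 in controls at 24 h, without overlap, with 1 irradiated and 4 control arrays detected, and had an effect of -0.63 ± 0.18 (limma adjusted p = 0.0161). That call was lost without irradiated replicate 1 or 4 (0.0521 and 0.0605), without the 5 arrays with the fewest detected probes (0.0703) and with cyclic loess (0.0955). Its effects differed between 96 and 24 h by 1.04 ± 0.26 (limma adjusted p = 0.0111). The lowest signal detected on the 4 irradiated 24 h arrays was 5.27, 5.40, 6.26 and 5.90, so the sizes of the 24 h effect and of this difference are not settled. Cyp24a1, Cyp26b1 and Cyp11a1, which act on vitamin D, retinoic acid and cholesterol, were detected on 5, 6 and 5 arrays and called at no time, with 24 h effects of 0.43 ± 0.20 for Cyp24a1 and 0.15 ± 0.32 for Cyp26b1, while no 24 h array detected Cyp11a1.

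Cyp20a1, whose substrate is unsettled, and Cyp2u1, a fatty acid hydroxylase, completed the genes called lower at 24 h. Cyp20a1 read 6.17, 6.02, 5.77 and 5.96 in irradiated organoids, against 6.33, 6.40, 6.21 and 6.62 in controls. It had an effect of -0.41 ± 0.14 (1.33-fold lower; limma adjusted p = 0.038) with no overlap. The adjusted p was 0.0527 to 0.128 without control replicate 1, 2 or 4 or irradiated replicate 2, 3 or 4, and 0.378 with cyclic loess, where the effect was -0.18. Cyp2u1 read 4.76, 5.16, 4.53 and 4.53 in irradiated organoids, against 5.52, 5.81, 5.13 and 5.16 in controls. It was detected on 0 irradiated and 2 control arrays, and its mean of 5.40 in controls lay too near the floor for a bound on the fold. Its adjusted p was 0.0115, with 0.0528 without control replicate 2 and 0.177 without the 5 arrays with the fewest detected probes.

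The electron donors and heme enzymes that serve P450 proteins were led by Hmox1. Of 24 listed 22 were tested, with 6 higher and 1 lower at 24 h, 2 and 0 at 48 h, and 0 and 1 at 96 h, and median effects of 0.20, 0.05 and 0.01. Among all tested genes, 11.1% were higher and 12.5% lower at 24 h, 7.27% and 6.22% at 48 h, and 1.71% and 3.39% at 96 h, so the 48 and 96 h counts of this list are near the background. With median scaling the medians were -0.29, -0.22 and -0.26, with 2 higher and 7 lower at 24 h. How this list differs from the P450 genes was not tested. Hmox1, which breaks heme down, was higher by 2.21 ± 0.20 at 24 h and 1.14 ± 0.20 at 48 h (limma adjusted p = 2.53e-08 and 0.000323). Cpox, an enzyme of heme synthesis, was higher by 0.94 ± 0.21 and 0.71 ± 0.21 (adjusted p = 0.00247 and 0.0284). Pgrmc1, a heme-binding partner of P450 enzymes, was higher by 0.56 ± 0.10 at 24 h (adjusted p = 0.000242), as were Cyb5r3, Cyb5 and Cyb5b of the cytochrome b5 system by 0.54, 0.34 and 0.26. Blvrb, a biliverdin reductase, was lower, at -0.61 ± 0.17 at 24 h and -0.67 ± 0.17 at 96 h (adjusted p = 0.013 and 0.0246). Por was not called, at 0.35 ± 0.17 at 24 h (adjusted p = 0.155).

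Of 36 regulators of P450 genes 30 were tested, with 3 higher and 5 lower at 24 h, 2 and 2 at 48 h, and 0 and 1 at 96 h, and medians of -0.15, 0.01 and -0.08. With median scaling 0 were higher and 13 lower at 24 h, and with cyclic loess 4 were higher and 2 lower, so these calls depend on the scaling. The counts at 24 and 48 h are near those shares of all tested genes and show nothing particular to this list. The receptor CAR (Nr1i3) was higher by 0.99 ± 0.20 at 24 h and 0.82 ± 0.20 at 48 h (limma adjusted p = 0.000855 and 0.0065). PXR (Nr1i2) was higher by 0.81 ± 0.19 at 24 h (adjusted p = 0.00381), and the liver X receptor Nr1h3 by 0.32 ± 0.11 (adjusted p = 0.0403). The genes lower at 24 h included the transcription factors Foxa1 at -0.64 ± 0.20 and Onecut2 at -0.58 ± 0.17, together with Foxa2 and Hnf4a (limma adjusted p = 0.0154 and 0.00728). At 48 h Ppargc1a was higher by 0.59 ± 0.19, and the vitamin D receptor Vdr and Foxa3 were lower, at -0.64 ± 0.16 and -0.38 ± 0.09 (adjusted p = 0.00765 and 0.00417). At 96 h Nr1h2 was lower, at -0.72 ± 0.16 (adjusted p = 0.00596).

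The signed irradiation effect was lower at 96 h in many P450 genes. Between 96 and 24 h 14 of the 38 had a lower effect and 2 a higher one, Cyp2c70 and Cyp39a1, against 6.90% and 4.50% of all tested genes. A lower signed effect is not always a smaller one: those of Cyp2c55 and Cyp2d40 were positive at 24 h and negative at 96 h. Of these 16 genes, Cyp2c70, Cyp2d22 and Cyp2e1 had a group in which no array detected them, so the size of their difference is not given here. Among the others the falls were largest in Cyp2d40, Cyp3a25 and Cyp2d10, the last at -1.27 ± 0.20 (limma adjusted p = 0.000182). Between 96 and 48 h 9 had a lower effect and 0 a higher one, against 2.69% and 0.806% of all genes, led by Cyp2d40 at -1.63 ± 0.27 (limma adjusted p = 0.00106) and Cyp2d10 at -1.42 ± 0.20 (limma adjusted p = 0.000153). Without the 5 arrays with the fewest detected probes, 10 genes differed between 96 and 24 h in place of 16, and with median scaling 5. The effects of 2 times share no arrays, and each time has its own controls. The 96 h arrays enter both comparisons, however, so the falls from 24 h and from 48 h are not separate results. The 21 tested enterocyte genes had a lower effect at 96 than at 24 h in 14 cases and a higher one in 0.

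In the controls alone, 15 of the 38 genes were lower at 96 than at 24 h and 1, Cyp2e1, was called higher (limma adjusted p = 0.0367), without a size since no 24 h control array detected it. Among all tested genes 5.68% were lower and 6.74% higher. The difference was -1.85 ± 0.12 (limma adjusted p = 2.38e-10) for Cyp2c29, -1.70 ± 0.13 (limma adjusted p = 4.29e-09) for Cyp3a11 and -1.64 ± 0.19 (limma adjusted p = 1.63e-06) for Cyp3a25. The Cyp2b genes were lower too, at -1.35 ± 0.29 (limma adjusted p = 0.00226) for Cyp2b23 and -0.95 ± 0.13 (limma adjusted p = 1.59e-05) for Cyp2b10. Cyp2d26 stood at -1.03 ± 0.13 (limma adjusted p = 9.04e-06), and Cyp2s1 and Cyp2c55 were not called. Of the 21 enterocyte genes, 14 were lower and 0 higher. Since each time had its own chip, culture age and chip cannot be told apart.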

How the data were processed

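RNA of 24 organoid samples was labelled as biotinylated cDNA and hybridised to Illumina BeadChips, per the labels' protocols. The authors deposited a table of intensity values, mean bead signals per probe that from the values are not normalized, with a detection p-value per probe and array, per the file headers. They also deposited processed intensity values, used as an alternative. The scanning and normalization software are not given in the sources used here.

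Signals were background corrected from the detection p-values (limma 3.58.1, R 4.3.3, data.table package version 1.17.8; offset 16), quantile normalized and put on the log2 scale. A probe entered where 4 or more arrays had a detection p below 0.05 (15056 of 25697 did), and each symbol was read from its brightest probe, which gave 10798 genes. All 75 symbols equal a current RefSeq symbol. Groups of the 6 conditions were fitted with limma to all 24 arrays (18 residual degrees of freedom, median SE 0.169), and p-values, two-sided, were adjusted per contrast over all tested genes (Benjamini-Hochberg). A gene undetected on every array of 1 group has a bound only: the brighter mean against, per array of the dim group, the higher of the lowest detected signal and its own. The number of arrays limits the precision.

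Values on every array are given for the 5 largest called rises and falls per time, genes called at all times, the 3 largest differences between 96 and 24 h, and the brightest gene of 7 groups, with Cyp1a1, Cyp2b10 and further values added after they were seen; the Cyp2c65 and Cyp1a1 promoters and the HNF4 windows were too. The values of 1 regulator are not reported here. Members and gene lists were chosen with earlier results of these data known. Alternatives were other backgrounds, scalings, filters, probe rules, variance models, array sets, the replicate number as a block, and each array omitted in turn.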

Additional observations from a re-analysis of the deposited data

Results flagged for a closer look

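In 4 of 126 groups of 4 values, 1 array lay apart from its own group by Dixon's criterion (gap over range above 0.829), and chance gives about 1 in 20. Irradiated 24 h replicate 2 read 10.21 for Cyp2c55, with the others at 10.04 to 10.05. Control 24 h replicate 2 read 10.86 for Cyp2c65, with the others at 11.02 to 11.05. Control 96 h replicate 4 read 6.47 for Cyp2j6, with the others at 5.74 to 5.86, and 5.54 for Cyp4b1, with the others at 6.26 to 6.34.

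The irradiation effect differed between times in the following genes, with differences in log2 units and the limma adjusted p in brackets. At 48 minus 24 h they were Cyp1a1 0.85 (0.00995) and Cyp1b1 0.82 (0.013). At 96 minus 48 h they were Cyp1a1 -0.78 (0.00898), Cyp1b1 -0.72 (0.0164), Cyp2c55 -1.05 (0.00174), Cyp2d10 -1.42 (0.000153), Cyp2d26 -1.08 (0.00174), Cyp2d40 -1.63 (0.00106), Cyp3a11 -1.11 (0.000696), Cyp4f14 -0.58 (0.0113) and Cyp4v3 -1.01 (0.0399). At 96 minus 24 h they were Cyp2c40 -0.63 (0.0268), Cyp2c55 -1.15 (0.00024), Cyp2c65 -0.63 (0.0265), Cyp2c67 -0.48 (0.0175), Cyp2c70 1.09 (0.0167), Cyp2d10 -1.27 (0.000182), Cyp2d22 -0.90 (0.00342), Cyp2d26 -0.93 (0.00236), Cyp2d40 -1.65 (0.000331), Cyp2e1 -1.42 (0.00198), Cyp39a1 1.04 (0.0111), Cyp3a11 -0.77 (0.00644), Cyp3a25 -1.28 (0.00251), Cyp4f13 -0.82 (0.0286), Cyp4f14 -0.46 (0.0204) and Cyp4v3 -1.11 (0.00946). Cyp1a1, Cyp1b1, Cyp2c70, Cyp2d22 and Cyp2e1 each had a group in these contrasts in which no array detected them, so the size of their differences is not settled. Nor is that of Cyp39a1, which 1 irradiated array detected at 24 h.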

How the results depend on the processing

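No alternative turned the direction of a called P450 gene. With median scaling the counts were 6 higher at 24 h (19 as reported), 9 higher and 2 lower at 48 h (17 and 1), 1 higher and 8 lower at 96 h (3 and 3), and 0, 5 and 5 genes with effects that differed between 24 and 48 h, 48 and 96 h, and 24 and 96 h (2, 9 and 16). For genes lower at 24 h (5), cyclic loess gave 3, leaving out the 5 arrays with the fewest detected probes 2, and their number as a covariate 2, the last pair chosen after seeing the data. For genes lower at 48 h (1), 2 were called with no background correction, median scaling, cyclic loess, the authors' deposited processed values, array weights, only the arrays of the times compared, and without those 5 arrays. At 96 h, 1 was higher with only the arrays of the times compared, and 5 were lower when a gene's probes were averaged. Genes differing between 24 and 48 h (2) numbered 1 with no background correction, the deposited processed values, detection on at least 8 arrays and a trended variance, and 5 with averaged probes. Without those 5 arrays 10 differed between 24 and 96 h.

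With 1 array left out, 18 to 20 genes were higher and 3 to 5 lower at 24 h (3 without control replicate 2 or irradiated replicate 4), 12 to 18 higher and 1 lower at 48 h, and 2 to 3 higher and 3 to 4 lower at 96 h. Differences between times numbered 2 to 4 (24 and 48 h; 4 without irradiated 24 h replicate 3), 8 to 11 and 14 to 18, and 13 to 16 genes differed between 96 and 24 h controls. Where a cause is not named by the setting itself, the cause was not tested.

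The labels do not say whether replicate numbers pair the arrays, and the values do not settle it. Deviations of same-numbered irradiated and control arrays correlated at -0.408 to 0.456, above 0.1 in 7 of 12 pairs, and 6 arrays correlated best with their own number. With a replicate block 20 genes were higher and 5 lower at 24 h, 18 and 1 at 48 h, 1 and 3 at 96 h, where Cyp3a11 and Cyp3a13 lost their calls (adjusted p = 0.057 each), and 0, 6 and 15 differed between times. The signal over background limits the 12 genes not detected on any array of at least 1 group.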
